A study of Mus musculus with 2 samples.

Results

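The genes described here are 9 that guide leukocytes into, within and out of the bone marrow: the chemokine receptor genes Cxcr4, Cxcr5, Ccr2, Ccr7 and Ccr9, the sphingosine 1-phosphate receptor gene S1pr1, the selectin ligand gene Selplg, and Rac1 and Rac2, which encode small GTPases of cell movement. They were chosen by function, and their probes were found by matching the RefSeq accession of each non-control probe to a gene symbol. All 9 were present among 20618 named genes of the array, on 11 probes and 20 spots. The cells, mouse B-ALL (acute lymphoblastic leukaemia of B lineage), were sorted from bone marrow by the fluorescence ratio at 405 and 488 nm of SoNar, a genetically encoded sensor that reads NADH relative to NAD+ in the cytosol. The SoNar-high group was 1 array and the SoNar-low group was 1 array, both from C57BL mice of 8 weeks, with Cy3-labelled total RNA on an Agilent mouse array of 1 colour. Titles call the same samples N-myc-high and N-myc-low, and the labels do not explain this. The sources used here do not give the oncogene behind the leukaemia, the number of mice or any pooling.

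Chemokine receptors are G protein-coupled receptors that steer cells along gradients of small secreted proteins. Cxcr4 and its ligand Cxcl12 hold B cell progenitors and many leukaemic cells in marrow niches, whereas S1pr1 draws lymphocytes out into the blood, where its lipid ligand is abundant. Selplg encodes PSGL-1, on which circulating cells roll over P- and E-selectin, and Rac1 and Rac2 pass receptor signals to the actin cytoskeleton. The probe sequences are not part of the files used here, so members are identified by the array's probe names.

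With 1 array per group no test was possible, and the differences have no replicate check. The arrays were scanned in different sessions, so scan and group cannot be told apart. Well above background were 72.9% of the 43020 non-control spots in SoNar-high and 44.8% in SoNar-low cells, and the lowest signal counted as detected was 19.7 and 46.4, respectively. In these bulk samples fewer cells of a type and less RNA per cell cannot be told apart. Of 15 B lineage markers, 11 were measured on both arrays, among them Cd79b, a signalling chain of the B cell receptor, with a processed signal of 14376.5 in SoNar-high and 12625.0 in SoNar-low cells. Of the early B cell genes on the list, Vpreb1, with 128.0 and 118.0, Vpreb3, with 9344.9 and 12060.7, and Dntt, with 168.9 and 182.4, were measured in both samples. Igll1, Rag1, Rag2 and Il7r were not well above background in either sample.

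None of the 7 homing genes measured on both arrays differed by 2-fold between SoNar-high and SoNar-low cells. Cxcr4 and Rac2 had the highest differences, Ccr9 and Ccr7 the lowest, and S1pr1, Selplg and Rac1 lay between them. Ccr2 was not well above background in either sample, and Cxcr5 was well above background in SoNar-high cells only. A difference is given throughout as SoNar-high minus SoNar-low of the log2 processed signal after subtraction of each array's 75th percentile. It is followed by a spot error, which the scanner software's error model gives for the spots of both arrays and which leaves out variation between animals, sorts and labellings. In all, 0 of 7 members were at least 2-fold higher, against 4.87% of 10517 genes, and 0 were at least 2-fold lower, against 1.68% (6.55% in either direction). Being measured on both arrays was itself true of 51.0% of named genes. With both arrays centred on their median instead, these shares of all genes became 1.32% and 31.4%, since this setting lowers every log2 difference by 0.61; any value between 0 and 0.61 named here turns below 0 there.

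**Figure D1:**
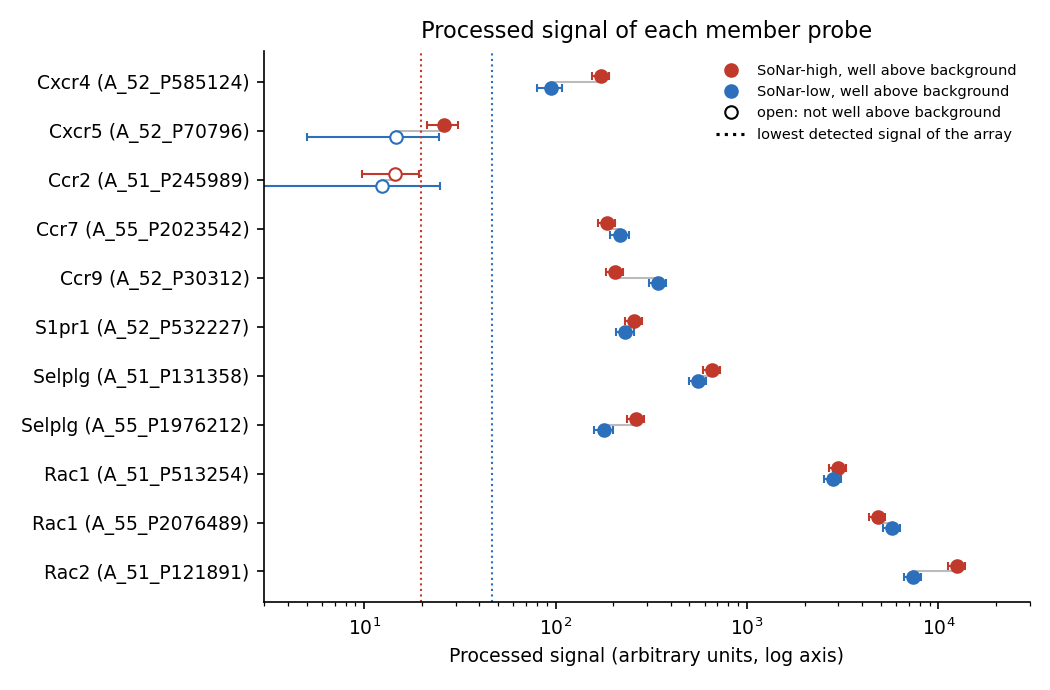
Processed signal of each member probe (arbitrary units, log axis) on the SoNar-high array (red) and the SoNar-low array (blue), with bars for the scanner software's error of the signal (for Rac2, means over 8 kept spots) and dotted lines at each array's lowest detected signal. Signals are to be compared within a row only; the SoNar-high point lies to the right for Cxcr4 and Rac2 and to the left for Ccr7 and Ccr9, while both Ccr2 points and the SoNar-low point of Cxcr5 are open, being not well above background (the Ccr2 bar for SoNar-low leaves the axis).

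Among the receptors with a marrow-retaining role, Cxcr4 (probe A_52_P585124) had a processed signal of 171.6 ± 17.6 in SoNar-high and 94.0 ± 14.2 in SoNar-low cells, each with its spot error. The signal was higher in SoNar-high cells and well above background in both. The log2 difference was 0.72 with a spot error of 0.26, or 1.65-fold, and 927 of the 10517 genes had a higher one. Genes as dim as Cxcr4 tended upward: with genes ranked by mean level into 10 classes of equal size, those in its class, the second from the bottom, had a median of 0.18, and Cxcr4 lay at percentile 77.8 of these 1052 genes. The value was 0.43 with cyclic loess, 0.35 with quantile normalization, 0.31 with normexp background correction, 0.36 in the authors' deposited table and 0.11 with centring on the median. Cxcr4 was above 0, and above the median of all genes, in all 12 settings, which share the same spots.

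Cxcr5, the receptor by which B cells enter lymphoid follicles, gave a processed signal of 26.2 ± 4.85 in SoNar-high, where it was well above background, and 14.7 ± 9.72 in SoNar-low cells, where it was not. Its background-subtracted signal exceeded that of 99.3% of 153 negative control spots in SoNar-high and of 100% in SoNar-low. Its scaled level of -4.33 on the SoNar-high array lay under the lowest detected level of the SoNar-low array, -3.36, so no fold can be given. Detection on the SoNar-high array alone was common: it applied to 26.5% of all named genes, against 0.0534% for the SoNar-low array alone.

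Ccr2, which brings monocytes out of the marrow and into inflamed tissue, was dim on both arrays. Its processed signal was 14.5 ± 4.79 in SoNar-high and 12.4 ± 12.4 in SoNar-low cells. Its background-subtracted signal exceeded that of 98.7% of 153 negative control spots in SoNar-high and of 34.6% in SoNar-low. No fold is given. Like Ccr2, 22.5% of named genes were detected on neither array.

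Ccr7 and Ccr9 were the receptors with a lower signal on the SoNar-high array. Ccr7, which leads lymphocytes and dendritic cells to lymph nodes, had a processed signal of 186.3 ± 19.1 in SoNar-high and 217.5 ± 24.2 in SoNar-low cells. Its log2 difference was -0.37 with a spot error of 0.22. Ccr9, a receptor for homing to thymus and small intestine, had a signal of 203.3 ± 20.7 in SoNar-high and 341.6 ± 35.4 in SoNar-low cells. Its log2 difference of -0.89, with a spot error of 0.21, was the lowest of the members, with SoNar-low 1.86-fold over SoNar-high. Only 348 of the 10517 genes had a lower one, and within its class of mean level Ccr9 stood at percentile 1.62. Ccr9 passed 2-fold in 3 of 12 settings, with -1.51 after median scaling, -1.09 after quantile normalization and -1.09 in the authors' deposited table, where 4.09% of genes were at least 2-fold lower and 3.40% at least 2-fold higher. Both genes stayed below 0 and below the median of all genes in all 12 settings.

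S1pr1, the egress receptor, had a processed signal of 257.3 ± 26.1 in SoNar-high and 231.4 ± 25.8 in SoNar-low cells. The signals differed by about their spot error, and the scaled log2 difference was 0.01 with a spot error of 0.22. Its sign followed the scaling, from -0.61 with median scaling to 0.22 with the percentile of spots that both arrays detected, and was above 0 in 7 of 12 settings.

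Selplg had 2 probes, both brighter on the SoNar-high array. The first (A_51_P131358) gave 652.9 ± 65.4 against 557.0 ± 56.8, a log2 difference of 0.08, and the second (A_55_P1976212) gave 263.2 ± 26.6 against 178.9 ± 20.4, a difference of 0.41. The gene's value, the mean of both, was 0.25 with a spot error of 0.21. The gap of 0.33 between the probes is ordinary for this array pair: among 2021 genes with 2 measured probes the median gap was 0.43.

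The Rac GTPases differed from each other. Rac1, expressed in nearly all cells, had a probe (A_51_P513254) with 2988.1 ± 298.8 in SoNar-high and 2802.9 ± 280.5 in SoNar-low cells, and a probe (A_55_P2076489) with 4806.5 ± 480.7 and 5719.5 ± 572.1. The probes disagreed in the sign of the raw signal, and the scaled log2 differences were -0.05 and -0.40, with a mean of -0.22 and a spot error of 0.20. Against the median of all genes Rac1 lay above it in 4 of 12 settings and below it in 8, so no direction is given.

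Rac2, the form largely restricted to blood cells, was printed 10 times on the array with the same probe. On the SoNar-high array the 8 kept spots ran from 11208.3 through a median of 12695.4 to 13303.1, and on the SoNar-low array from 6564.0 through 7348.9 to 8404.1. The ranges of these kept spots did not overlap, and each of the 8 spots was brighter on the SoNar-high array. The mean log2 difference was 0.62 ± 0.18 (SD over 8 spots of the same labelled RNA), or 1.54-fold. That spread is ordinary, as 193 probes with repeated spots had a median SD of 0.15. The other 2 spots were marked as population outliers on the SoNar-low array, with 11498.2 and 11801.9 there, and their log2 differences were 0.02 and 0.03. With them kept, the mean was 0.50 ± 0.30 over 10 spots. The ranges of all 10 spots overlapped, as both marked spots on the SoNar-low array exceeded the lowest SoNar-high spot, 11208.3.

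**Figure D2:**
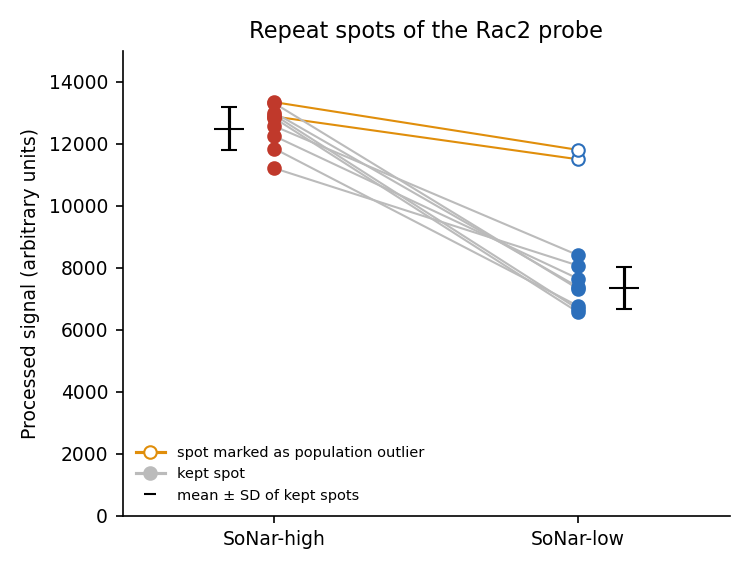
Processed signal (arbitrary units, axis from 0) of the 10 repeat spots of the Rac2 probe on the SoNar-high and SoNar-low arrays, lines joining the same spot position, with the mean ± SD of the 8 kept spots in black. All kept SoNar-low spots, up to 8404.1, lie below all SoNar-high spots, and the 2 open spots with orange lines, marked as outliers on the SoNar-low array, lie between 11498.2 and 11801.9 there.

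Bright genes as a whole were lower on the SoNar-high array, so the Rac2 value stands further from its neighbours in level than from all genes. In the brightest class of mean level, which holds Rac2, the median log2 difference was -0.33, and Rac2 lay at percentile 97.1 of 1052 genes, against percentile 89.4 of all. Loess, quantile and normexp processing raised it to 0.86, 0.74 and 0.71, and median scaling lowered it to 0.01. Rac1, Rac2 and Rac3 are close paralogs. Whether their transcripts bind each other's probes was not tested.

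In order of the log2 difference the measured members were Cxcr4, Rac2, Selplg, S1pr1, Rac1, Ccr7 and Ccr9. Between neighbours in this order, the step from Rac2 to Selplg (0.37, combined spot error 0.30) and that from Ccr7 to Ccr9 (0.53, combined spot error 0.30) exceeded the combined spot error. The other steps did not. Of the 7 members, 4 were above 0, against 36.8% of all genes, and the same number were above the median of all genes, -0.17, which by construction splits all genes evenly. The members' median was 0.01, and -0.11 with Cxcr5 included at its limit.

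**Figure D3:**
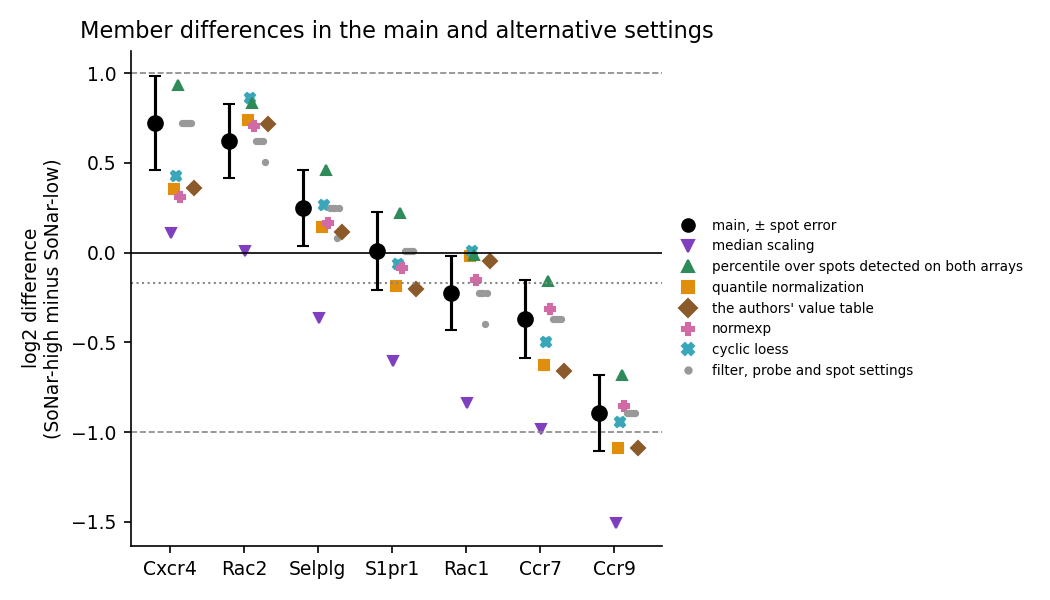
SoNar-high minus SoNar-low log2 differences of the 7 members measured on both arrays, with the main value and its spot error in black and the alternative settings as coloured symbols; the dotted line marks the median of all genes, -0.17, and dashed lines mark a 2-fold difference. Cxcr4 and Rac2 stay above 0 and Ccr7 and Ccr9 below 0 in every setting, with Ccr9 passing -1 in 3, while S1pr1, Selplg and Rac1 fall on both sides of 0.

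The other chemokine receptors were hardly measurable. Of 18 genes, 1 was measured on both arrays, 11 were well above background in SoNar-high alone and 6 in neither. Among all named genes these shares were 51.0%, 26.5% and 22.5%. Of the 11, 0 had a bound of 2-fold, which 5.67% of such genes had. Ccr8, a receptor of T cells and skin homing, had a log2 difference of 0.52 from 1 of its 2 probes. Among the ligands of the member receptors and the selectins, 3 of 11 genes were measured and none passed 2-fold. Cxcl12, the ligand of Cxcr4 that marrow stroma secretes, was not well above background in either sample. Ccl19, a ligand of Ccr7, was at 0.50 from 2 of its 3 probes, and fell to 0.07 with quantile normalization. Ccl25, the ligand of Ccr9, was at -0.68 from 1 of its 2 probes.

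In the sphingosine 1-phosphate pathway, 7 of 14 genes were measured and none passed 2-fold in either direction. Of the 7, 1 lay above 0 and 6 below, where 36.8% of all genes lay above 0. The highest was Mfsd2b, an exporter of the lipid, at 0.55, and the lowest the receptor gene S1pr3, at -0.90 from a dim probe. S1pr3 passed 2-fold lower in 4 of the 11 settings that measured it, with -1.46 after quantile normalization, -1.51 after median scaling and -1.72 in the authors' deposited table. Sgpl1 and Sgpp1, enzymes that break the lipid down, were at -0.59 and -0.79. Klf2, a transcription factor that drives S1pr1, had a processed signal of 990.8 in SoNar-high and 1191.7 in SoNar-low cells, a log2 difference of -0.41. Cd69, which removes the receptor from the cell surface, was not well above background in either sample. The pathway's median was -0.41, and it turned to 0.05 with no filter on dim probes and to 0.26 with detection on at least 1 array, which admit 14 and 13 genes.

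Of 10 enzymes that glycosylate or sulphate PSGL-1, 7 were measured and 0 passed 2-fold. The tyrosine sulphotransferase genes Tpst1 and Tpst2 had differences of 0.56 and 0.33, and C1galt1, which builds the core of O-glycans, was lowest at -0.93. Fut7, which completes the selectin-binding sugar, was detected in SoNar-high cells alone, with a bound under 1, so no fold is given.

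Downstream of the receptors, 14 of 17 genes of G protein signalling and desensitisation were measured, none exceeded 2-fold upward and 1 fell by more than 2-fold. That gene was Rgs16, a regulator that speeds the shut-off of G proteins coupled to chemokine receptors. Its processed signal was 103.4 in SoNar-high and 219.6 in SoNar-low cells, from 1 probe. Its log2 difference of -1.23, with a spot error of 0.22, passed 2-fold in all 12 settings, from -1.84 to -1.02. The value of -1.84 came with median scaling, where 31.4% of all genes were at least 2-fold lower. The highest of the list was Pik3r5, a regulatory subunit of the phosphoinositide 3-kinase that answers to such receptors, at 0.80. Pik3r5 was dim, with 111.7 in SoNar-high and 58.1 in SoNar-low cells, and fell to 0.29 with quantile normalization and 0.21 with normexp. Gnai2, the main inhibitory G protein subunit of leukocytes, was at -0.50.

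The regulators of Rac and its effectors were listed separately. Of 15 regulators and related GTPases, 14 were measured, none passed 2-fold, and 11 lay above the median of all genes. Their median was 0.19 (-0.42 with median scaling), from -0.35 for the exchange factor gene Vav1 to 0.84 for Elmo1, which works with Dock2 in activating Rac. Elmo1 was dim, with 149.9 in SoNar-high and 75.6 in SoNar-low cells, and fell to 0.43 with quantile normalization and 0.26 with normexp. Requiring signal over 2 times the detection level left 11 genes with a median of 0.03. Of these, 8 lay above that setting's all-gene median of -0.22. Rhoh, a haematopoietic GTPase, was at 0.81 and Rac3 at 0.74. Dock2 had a mean of -0.01 from 2 probes that disagreed, at 0.47 for the brighter and -0.49 for the dimmer, so no direction is given. Of 14 actin effectors of Rac, 10 were measured, 0 passed 2-fold, and 9 lay below the median of all genes. Their median was -0.54, with Brk1 lowest at -0.69 and Wasf2 highest at 0.22, both parts of the WAVE complex. The 3 probes of Wasf2 disagreed, at -0.41, -0.24 and 1.32, and its brightest probe was the one at -0.41. Actr2, Actr3 and Arpc2, subunits of the actin-nucleating Arp2/3 complex, were at -0.69, -0.57 and -0.52. These 3 are bright genes, and all genes in the 3 brightest classes of mean level had medians of -0.33, -0.34 and -0.33. Of the 6 measured genes of integrin activation, Rassf5, which links Rap1 to integrin adhesion, was lowest at -0.99 and Tln1, the gene of the integrin activator talin, highest at 0.06. The brighter probe of Tln1 was at -0.56 and the dimmer at 0.68, and 5 of 12 settings gave a value above 0, so no direction is given. The difference between these lists was not tested.

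Markers of other cell types moved with the arrays, and several homing genes are also expressed in those cells. Of 12 neutrophil markers, 10 were measured, 9 of them above the all-gene median, with Ngp at 1.29 and Retnlg at 1.04 past 2-fold; median scaling turned the list's median from 0.59 to -0.02. Their summed processed signal over 12 genes was 24961.4 in SoNar-high and 18065.4 in SoNar-low cells. Of 9 monocyte markers, 4 were measured, 4 more were seen in SoNar-high cells alone and 1 in neither, and Csf1r, the monocyte growth factor receptor gene, was highest at 1.25 and Vcan lowest at -0.14. Median scaling turned the list's median from 0.59 to -0.02. Their summed signal was 1615.1 and 754.6. Neutrophils and monocytes carry Cxcr4, Selplg and Rac2, and the part of these cells in the values of those genes was not tested.

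T cells, dendritic cells and natural killer cells express Ccr7, Ccr9 or both in some of their subsets. Of 10 T cell markers, 5 were measured, with Cd4 at 1.72 from 1 of its 2 probes and Cd3e at 1.26. Lck, a kinase of T cell receptor signalling, was lowest at -0.94, with 858.2 in SoNar-high and 1490.2 in SoNar-low cells, while Cd3d and Cd8b1 were not well above background in either sample. Their summed signal was 1990.5 in SoNar-high and 2009.7 in SoNar-low cells. Of 7 dendritic cell markers 4 were measured, with Siglech, a marker of plasmacytoid cells, highest at 0.96 and Irf8 lowest at -0.59. Flt3 and Batf3 were at -0.16 and -0.11. The summed signal of the 7 genes was 12799.5 and 7628.8, most of it from Siglech, with 10615 and 4944.6 as the mean of its 2 probes. Of 7 natural killer markers 3 were measured. Among them 2 were at least 2-fold higher, Prf1 at 1.22 and Gzma at 1.12, against 4.87% of all genes. Both passed 2-fold in 6 of the 11 settings that measured them, with 0.58 and 0.50 after normexp. Summed over the 7 genes, the signal was 961.0 in SoNar-high and 436.4 in SoNar-low cells. Above 0 were 4 of 5 T cell markers, 1 of 4 dendritic cell markers and 3 of 3 natural killer markers, against 36.8% of all genes. The T cell list's median was 0.62, and 0.09 with quantile normalization or cyclic loess. The part of these cells in the values of Ccr7 and Ccr9 was not tested.

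The B lineage list had a median of -0.36 over 11 measured genes, from -0.92 for Ebf1 to 1.16 for Cd22, an inhibitory receptor of B cells and the only one of these to pass 2-fold. Their summed signal over 15 genes was 48209.6 in SoNar-high and 54167.1 in SoNar-low cells. Of 8 erythroid markers 2 were measured, Hba-a1 at 1.88 and Ermap at 1.67 from 1 of its 3 probes. The list's summed signal was 1011.1 in SoNar-high and 313.7 in SoNar-low cells. Of 8 stromal and endothelial markers 5 were measured, with Kdr at 1.54 from 1 of its 2 probes, Lepr at 1.02 from 1 of its 4 and Alpl at -0.83. Of the 5, 4 were above 0, against 36.8% of all genes. The list's median was 0.69, and 0.29 with quantile normalization and 0.08 with median scaling. Lepr passed 2-fold in 4 of the 11 settings that measured it. The summed signal was 8880.2 in SoNar-high and 13141.5 in SoNar-low cells, most of it from Alpl, with 7773.2 and 12516.7.

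**Figure D4:**
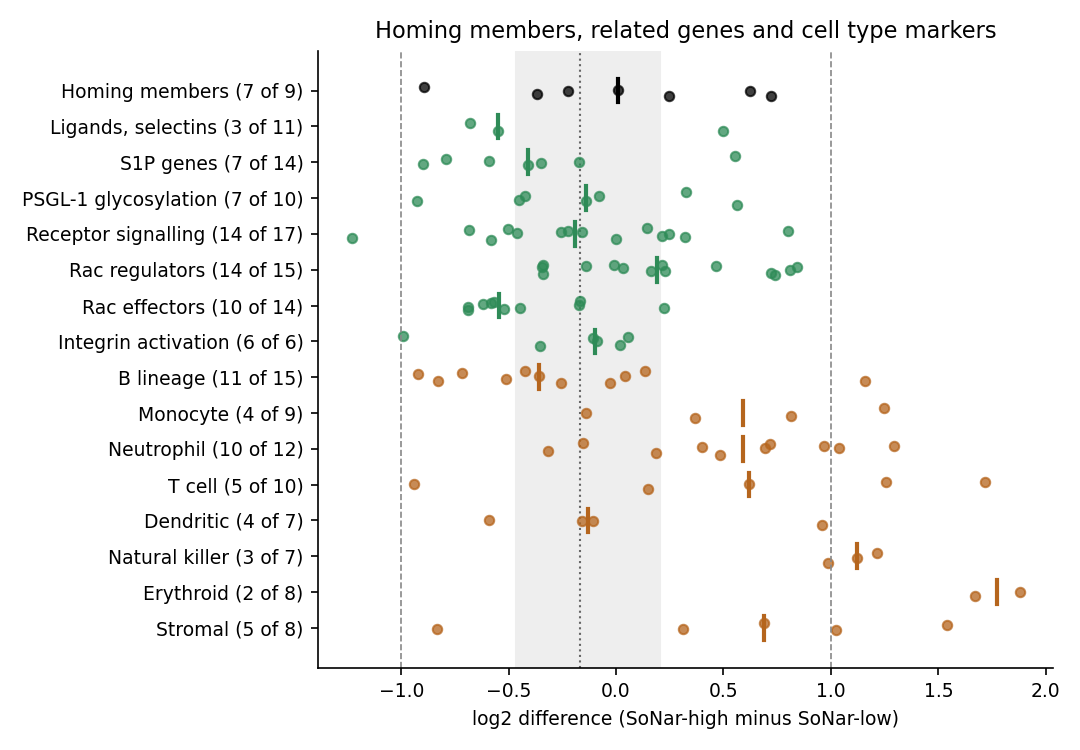
SoNar-high minus SoNar-low log2 differences of the homing members (black), related gene lists (green) and cell type markers (brown), with short bars at the list medians and, in brackets, the genes measured of those on the array; points are spread vertically at random for legibility. The grey band and dotted line give the quartiles and median of all 10517 genes, and dashed lines a 2-fold difference; Rgs16 is the single green point beyond -1, and the black points run from -0.89 (Ccr9) to 0.72 (Cxcr4).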

How the data were processed

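Total RNA of sorted cells was measured on 1 Agilent array of 1 colour per group; groups follow the source names. Each scanner file as deposited gives spot intensity (linear scale), from which Agilent Feature Extraction had removed background and spatial trend. Per the file headers its version was 11.0.1.1; the submitters' processing notes name 9.1. The table deposited by the authors is on a log2 scale: both columns have a median of 5.90, and each follows its own array's log2 processed signal (r = 0.995 and 0.994). How the authors normalized it is not stated. It served as an alternative.

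The 75th percentile was taken over non-control spots. Then 685 spots marked as non-uniform or population outliers on either array were dropped, and repeat spots were averaged in log2. A probe was detected where over 50% of its spots were well above background; genes were averaged over probes detected in both samples. Accessions were matched without version to RefSeq annotation of GRCm38.p6; the array annotation is of mm9, so no coordinates are given. For a gene detected in 1 sample, the bound compares its level there with the other sample's lowest detected level, or the gene's own level there if higher. Calls required a 2-fold difference, and no p-value was computed.

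The members and lists were chosen with earlier results of these data known. The text names all members and, of each list, genes at least 2-fold different or the highest and lowest; others were added for their role after their values were seen. Some genes of the lists are not reported here by name. The 11 alternatives were median scaling, cyclic loess, quantile normalization, the percentile over spots detected in both samples, normexp (offset 50, median spot and background signals), 3 filters on dim probes, the brightest probe, marked spots kept and the authors' table. Scripts were tested on simulated data. Python 3.11.15, numpy 2.4.6, pandas 2.3.3, R 4.3.3 and limma 3.58.1 were used.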

Additional observations from a re-analysis of the deposited data

How the results depend on the processing

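No paired analysis was possible because the design has 1 array a group, which also left none to omit. Ccr9 alone reached 2-fold lower (1 member against 0) with median scaling, quantile normalization and the authors' table, and 0 members were at least 2-fold higher in any of the 12 settings. Median scaling left 2 members above 0 instead of 4 and moved their median from 0.01 to -0.61. Over the 7 measured members and 11 alternatives, 58 of 77 values moved by less than their spot error and 19 by more. The 512 genes at least 2-fold higher became 139 (median scaling), 806 (percentile over shared detected spots), 262 (normexp), 2775 (no filter), 3203 (detection in at least 1 sample) and 337 (signal over 2 times the detection level). The 177 lower genes became 3306 (median scaling), 350 (quantile normalization), 300 (cyclic loess), 67 (percentile over shared detected spots), 60 (normexp), 1751 (no filter) and 430 (the authors' table). Shifting all values or admitting dimmer probes does this by construction; for the others the cause was not tested. Signal over background leaves Ccr2 and Cxcr5 without a fold, and the number of arrays limits every value.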
